A study of Homo sapiens with 27 samples.

Results

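Histone deacetylases remove acetyl groups from lysines of histones and of other proteins, and the zinc-dependent enzymes are ordered by class. HDAC1, HDAC2, HDAC3 and HDAC8 form class I, HDAC4, HDAC5 and HDAC7 class IIa, HDAC6 and HDAC10 class IIb, and HDAC11 class IV. HDAC1 and HDAC2 act as the catalytic subunits of the NuRD, SIN3 and CoREST corepressor complexes, and HDAC3 as that of the NCOR/SMRT complexes. A polyadenylated transcript ends where the cleavage machinery recognises a poly(A) signal, most often AATAAA in the DNA, cuts downstream of it and adds a tail. A transcript that passes its usual site can be cut at a later one, and its tail then lies beyond the annotated gene end.

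The 10 members examined were chosen by name, out of 20268 genes in the count tables, and all 10 were listed in each of the 4 tables. They were chosen because reads beyond the end of HDAC2 rose strongly after CPSF1 knockdown, and the questions were whether its paralogs shared that rise and whether the 3′ UTR level of HDAC2 changed. The values of HDAC2 in knockdown against control are therefore given as a description, with standard errors and no test, and the other 9 members were tested.

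Poly(A)-ClickSeq (PAC-seq), which sequences the junction of a transcript with its poly(A) tail, had been run on 27 libraries of 3 human prostate cancer cell lines. LNCaP is hormone-sensitive, LNCaP95 is a derivative of LNCaP that is hormone-insensitive, and 22Rv1 is hormone-insensitive as well. All cells had been transduced with lentivirus and selected with puromycin, and carried a control shRNA (CTRL sh) or 1 of 2 shRNAs against CPSF1 (CPSF1 sh1, CPSF1 sh2), with 3 libraries per group grown for 72 h in RPMI medium with serum, without phenol red for LNCaP95 alone, so that line and medium cannot be told apart. These were selected populations with stable knockdown, and nothing in the sources used here says that the replicates of a group came from separate transductions, so the p-values measure only the spread between these libraries. CPSF1 is the largest part of CPSF, the cleavage and polyadenylation specificity factor that binds the poly(A) signal.

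Libraries held 3452413 to 12425417 counted reads. The 10 kb regions beyond gene ends were the shallowest table, with 170330 to 728430 reads per library and 3.48% to 7.40% of all counted reads. The 3′ UTR table held 48.4% to 59.5%. In the 3′ UTR table CPSF1 itself fell by 1.19 on the log2 scale in LNCaP (edgeR adjusted p = 7.44e-05, SE 0.166), by 1.06 in LNCaP95 (adjusted p = 0.000214, SE 0.179) and by 0.72 in 22Rv1 (adjusted p = 0.0169, SE 0.141), with no overlap between control and knockdown libraries. HOXB13, a homeobox gene that marks prostate epithelium, stood at 153 to 316 CPM. The leukocyte marker PTPRC did not exceed 0.631 CPM and the basal marker KRT5 did not exceed 0.204 CPM. Not every marker followed this split. COL1A1, a fibroblast marker, was present, with a range of 28.1 to 44.8 CPM for LNCaP95. Its LNCaP range was 6.31 to 19.1 CPM, and its 22Rv1 range 5.05 to 11.1 CPM. The prostate luminal marker TMPRSS2 reached only 3.82 to 16.5 CPM for 22Rv1, while LNCaP libraries held 63.1 to 137 CPM of it. CPM here are read counts scaled by edgeR to a common size of the same table.

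The sequences that bear on where these transcripts could end are given first, in hg19. The first set shows the 30 bases around the AATAAA nearest the annotated end of HDAC2, HDAC1, HDAC3, HDAC5 and HDAC8, with the signal in capitals.
HDAC2 end, chr6:114254193-114254222, minus strand: agacaaagctcaAATAAAggaaaaagaccc
HDAC1 end, chr1:32799194-32799223, plus strand: gagcctctttgtAATAAAatggtacatttc
HDAC3 end, chr5:141000456-141000485, minus strand: ctgtttttatccAATAAActaagtcggtat
HDAC5 end, chr17:42154127-42154156, minus strand: tgtccttgtgtaAATAAActtgtttctggc
HDAC8 end, chrX:71549369-71549398, minus strand: tttggtttttttAATAAAatctttgaaaac

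The annotated end used here is the farthest of those counted for each gene. AATAAA began 19 bases before the annotated end in HDAC2, 31 bases before it in HDAC1, HDAC3 and HDAC5, and 21 bases before it in HDAC8. It was present in the last 50 bases of 9 of the 10 members. HDAC10 was the exception and had neither AATAAA nor the variant ATTAAA there. Over 19539 annotated 3′ UTR ends, 59.4% held AATAAA in the last 50 bases and 72.9% held either form. Only the transcribed strand was searched, and a match is a run of letters, not a measured site.

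The next pair shows the first AATAAA runs in the 10 kb region of HDAC2, which is where its knockdown reads were counted. Capitals again mark the signal.
HDAC2 downstream 1, chr6:114251334-114251363, minus strand: gtaaacatatccAATAAAaaaaaaaaaagc
HDAC2 downstream 2, chr6:114251299-114251328, minus strand: aatgaagactgaAATAAAtaataaaccctt

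These lay 2542 and 2577 bases into the region. The 10 kb region of HDAC2 held 11 AATAAA, against a median of 9 over 15147 regions of 10000 bases in a single block, of which 97.5% held at least 1. Its first AATAAA was farther from the start than in 73.9% of them, where the median was 1131 bases. The region was also A-rich: 271 windows of 20 bases held 13 or more As, more than in 93.3% of the regions (median 113). A-rich genomic sequence can give reads by priming inside a transcript, and the part of this in the 10 kb counts was not tested. Among the other members with a region in a single block, HDAC8 had 270 such windows and 15 AATAAA, HDAC1 had 72 and 7, HDAC4 had 65 and 5, HDAC11 had 56 and 2, and HDAC7 had 38 and 0. The tables sum reads over a region, so the base at which they ended is not known.

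The 10 kb region of HDAC2 spans 114243893 to 114253892 of chromosome 6, minus strand, with no base shared with a counted region of another gene of the same strand. In LNCaP the 3 CTRL sh libraries held 1, 2 and 0 reads there. The CPSF1 sh1 libraries held 36, 46 and 93 and the CPSF1 sh2 libraries 134, 58 and 161. Every knockdown library thus stood far above every control, and the controls were at or under the floor of 3 reads.

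In LNCaP95 the controls held 1, 0 and 3 reads, against 87, 251 and 88 with CPSF1 sh1 and 179, 171 and 136 with CPSF1 sh2. In 22Rv1 the controls held 1, 5 and 1 reads, against 73, 51 and 113 with CPSF1 sh1 and 187, 142 and 169 with CPSF1 sh2. The groups did not overlap in any line. On the CPM scale the mean went from 2.68 ± 2.54 (SD, n = 3) in controls to 179 ± 72.5 (n = 6) after knockdown in LNCaP, from 4.8 ± 5.52 to 322 ± 128 in LNCaP95, and from 10.7 ± 11 to 193 ± 56.1 in 22Rv1.

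The fitted log2 fold change of the HDAC2 10 kb region was 5.89 (SE 0.495) in LNCaP, 5.94 (SE 0.506) in LNCaP95 and 4.26 (SE 0.429) in 22Rv1. It ranked 19 of 13434 regions tested in LNCaP, 89 of 14774 in LNCaP95, and in 22Rv1 406 of 14340, counted from the largest rise. Because the controls held few reads, the pooled reads give the plainer size. In LNCaP 3 control reads stood against 528 after knockdown, a ratio of 67.1 after scaling to the reads of the table (95% counting interval 22.8 to 326). In LNCaP95 the reads were 4 and 912 and the ratio 65.3 (25.4 to 240), and in 22Rv1 they were 7 and 735 and the ratio 20.5 (9.89 to 51.1). These intervals cover counting error only, as PCR copies cannot be told from separate molecules.

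**Figure D1:**
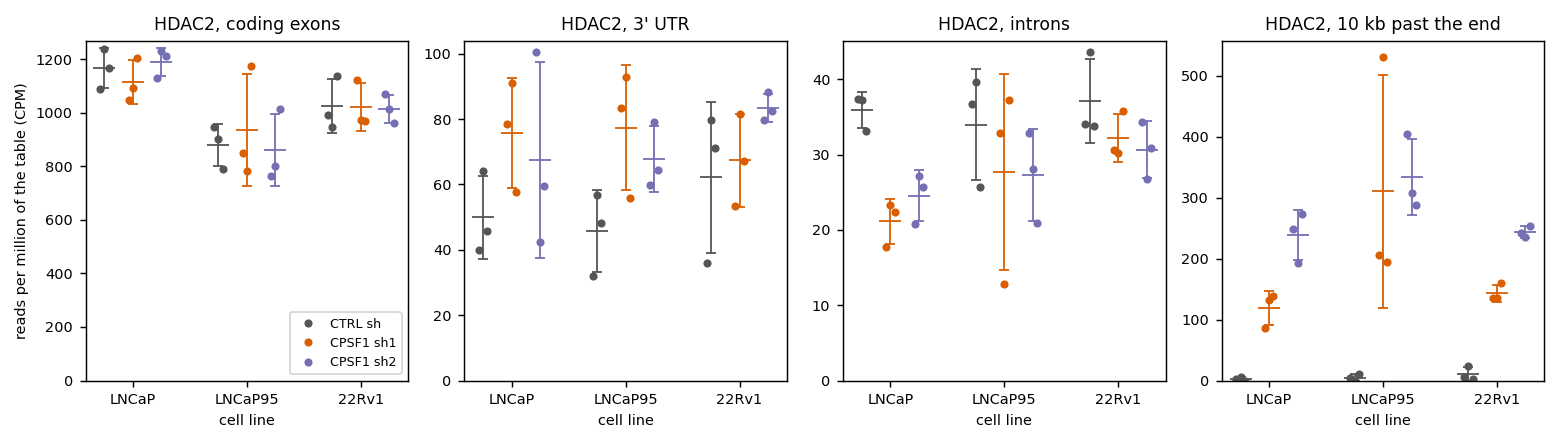
HDAC2 in each library of the 3 cell lines and each counted region, in CPM of the table of that region, with 1 point per library and the mean ± SD of 3 for CTRL sh, CPSF1 sh1 and CPSF1 sh2. The 10 kb values of all knockdown libraries lie above all controls in every line, while the 3′ UTR groups overlap in every line.

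Both shRNAs gave the HDAC2 reads beyond the gene end. The log2 fold change over the shared controls was 5.31 with CPSF1 sh1 and 6.31 with CPSF1 sh2 in LNCaP. For LNCaP95 the values were 5.89 and 5.99, and for 22Rv1 3.83 and 4.59. The contrast between the shRNAs did not enter the choice of the family and was tested. CPSF1 sh2 stood above CPSF1 sh1 by 1.00 on the log2 scale in LNCaP (SE 0.269, edgeR adjusted p = 0.125), by 0.10 in LNCaP95 (SE 0.299, adjusted p = 0.995) and by 0.76 in 22Rv1 (SE 0.238, adjusted p = 0.187). None of these passed. Group means were 119 ± 28.6 and 238 ± 41 CPM in LNCaP and 143 ± 14 and 244 ± 9.33 CPM in 22Rv1 (SD, n = 3 each). Of the 10 members, 0 differed between the shRNAs in either the 10 kb or the 3′ UTR table in any line by edgeR, where few genes did: 0.0893%, 0.00677% and 0.16% of 10 kb regions and 0.0363%, 0% and 0.0609% of 3′ UTRs across LNCaP, LNCaP95 and 22Rv1. At an unadjusted p under 0.05 the 10 kb counts were 2 (HDAC2 and HDAC3), 0 and 1 (HDAC2), and the 3′ UTR counts were 1 (HDAC6), 0 and 2 (HDAC6 and HDAC10). DESeq2 was not run for this contrast.

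The 3′ UTR level of HDAC2 moved far less. Its counted 3′ UTR spans 114253892 to 114277157 in 2 blocks, with 57 to 548 reads per library. In LNCaP the controls stood at 40, 64.1 and 45.6 CPM, CPSF1 sh1 libraries at 78.4, 91 and 57.8, and CPSF1 sh2 libraries at 101, 42.3 and 59.5. In LNCaP95 controls were 32.1, 56.8 and 48.1 CPM, against 83.3, 93 and 56 with CPSF1 sh1 and 59.8, 79.1 and 64.4 with CPSF1 sh2. In LNCaP 3 of the 6 knockdown libraries exceeded the highest control, and in LNCaP95 5 of 6 did, so the groups overlapped in both.

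In 22Rv1 controls were 36, 79.6 and 71.1 CPM, against 53.3, 81.5 and 67.1 with CPSF1 sh1 and 79.6, 88.2 and 82.6 with CPSF1 sh2, and the groups overlapped. The log2 fold change in the 3′ UTR was 0.53 (SE 0.224) in LNCaP, 0.67 (SE 0.193) in LNCaP95 and 0.24 (SE 0.206) in 22Rv1. It was positive in all 3 lines, with the mean going from 49.9 to 71.6 CPM in LNCaP, from 45.7 to 72.6 in LNCaP95, and from 62.2 to 75.4 in 22Rv1. CPSF1 sh2 and CPSF1 sh1 differed in the 3′ UTR by -0.13 (SE 0.254, edgeR adjusted p = 0.919), -0.19 (SE 0.216, adjusted p = 0.893) and 0.31 (SE 0.217, adjusted p = 0.596) on the log2 scale. The reads beyond the gene end were thus not matched by a loss of reads over the whole counted 3′ UTR of HDAC2. That 3′ UTR holds several annotated ends, at 114254192, 114257320, 114261882 and 114277091, and its reads are summed. A loss at a single end that was offset by a gain at another would not show. Set against the 3′ UTR of the same libraries, the 10 kb region rose by a log2 ratio of 5.48 (SE 0.697), 5.27 (SE 0.598) and 4.06 (SE 0.496).

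Most reads of HDAC2 fell in neither region but in its CDS, with 622 to 1883 per library. CDS reads made up 82.1% ± 4.15 of its reads in LNCaP controls, 80.1% ± 3.84 in LNCaP95 and 78.9% ± 7.61 in 22Rv1 (SD, n = 3). Among the other 9 members CDS reads ran from 21 to 123 per library in HDAC1, from 0 to 29 in HDAC6 and from 0 to 4 in the remaining 7. The most A-rich stretch of the HDAC2 CDS is shown because tails are read at A-rich DNA as well as at true ends, with its 20-base window in capitals.
HDAC2 CDS, chr6:114264526-114264555, minus strand: aattgAAGAAGATAAGAAAGAAACAgagga

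It holds 14 As in 20 bases. Of 19537 coding sequences 18.4% hold a window at least as rich, and the median of the richest window is 12 As. The share of the CDS reads that ended there was not tested. The HDAC2 CDS table value stayed nearly level, with log2 fold changes of -0.02, 0.03 and -0.01 on control means of 1166, 879 and 1024 CPM.

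**Figure D2:**
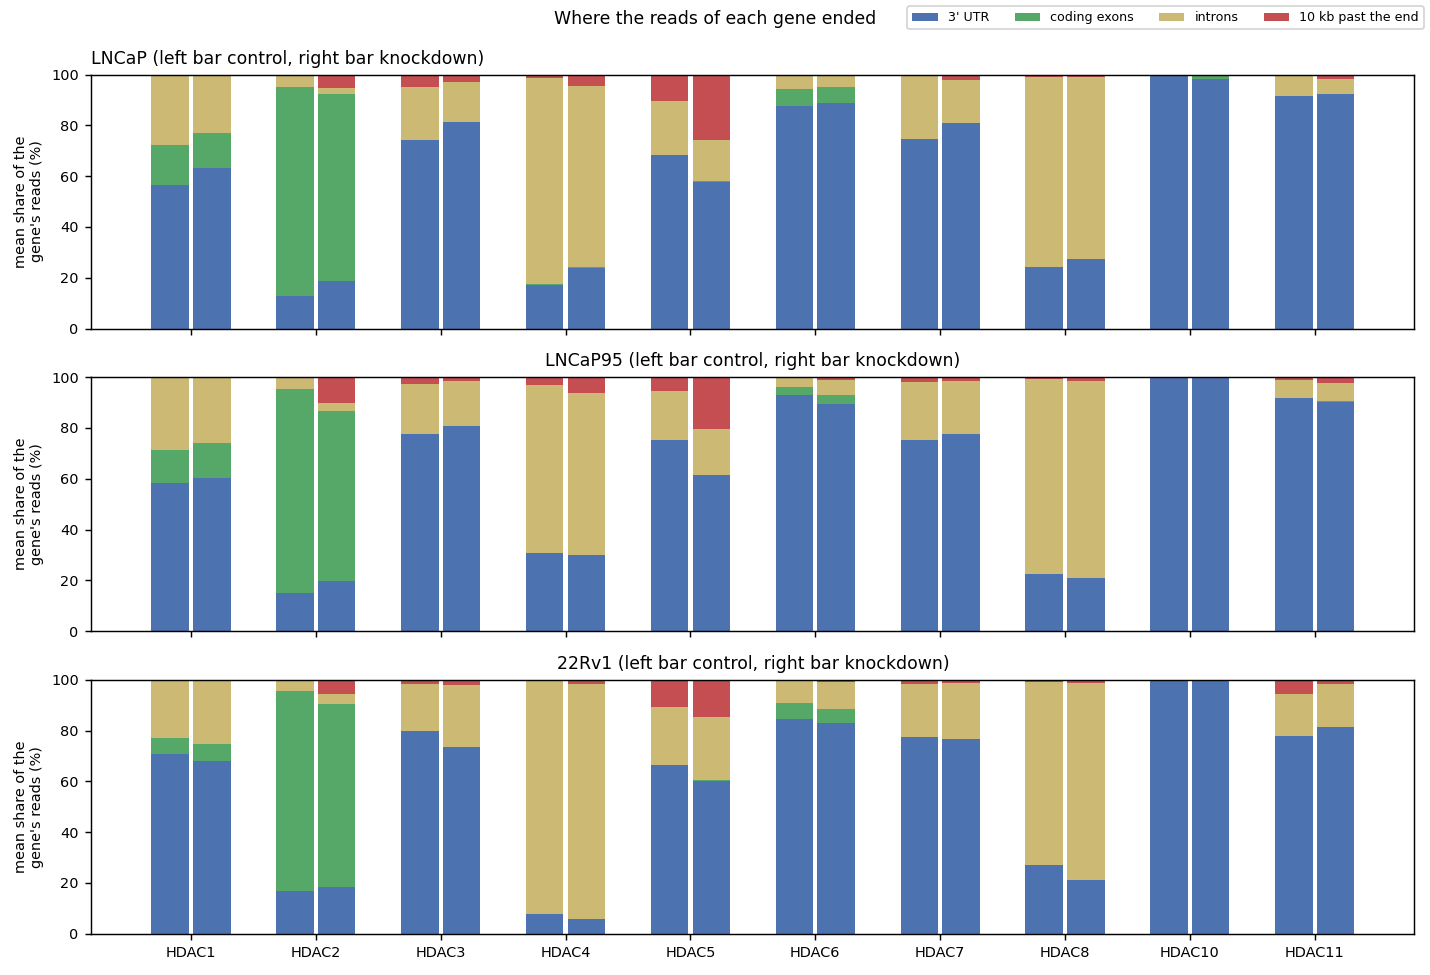
Mean share of the reads of each histone deacetylase gene in its 3′ UTR, coding exons, introns and 10 kb region, as stacked bars in percent of its reads over the 4 tables, with the mean of 3 control libraries on the left and of 6 knockdown libraries on the right. In the 10 kb share HDAC2 goes from a control mean of 0.0587% to 5.34% in LNCaP and HDAC5 from 10.4% to 25.6%.

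As a share of all its reads, the HDAC2 10 kb region took 0.0587% ± 0.0555 (SD, n = 3) in LNCaP controls and 5.34% ± 2.33 (n = 6) after knockdown. In LNCaP95 it took 0.0967% ± 0.114 and 10.2% ± 4.86, and in 22Rv1 0.211% ± 0.2 and 5.56% ± 1.9. Knockdown libraries ranged from 2.82% to 8.77%, from 4.56% to 16.0% and from 3.22% to 7.80%. Of the 3′ UTR and 10 kb reads alone, the 10 kb part rose from 0.436% to 24.0% in LNCaP, from 0.668% to 33.4% in LNCaP95 and from 1.29% to 23.0% in 22Rv1. Intron reads of HDAC2 went the other way in LNCaP, at -0.66 (SE 0.191, from 36 to 22.9 CPM) with all knockdown libraries below the controls, while in LNCaP95 (-0.29, SE 0.255) and 22Rv1 (-0.23, SE 0.176) the groups overlapped. Over all 4 tables together HDAC2 had log2 fold changes of 0.06 (SE 0.0967), 0.18 (SE 0.124) and -0.03 (SE 0.0988). The gene's whole read count therefore differed little while the share beyond its end grew. Most of that whole count is CDS reads, so it mainly follows the nearly level CDS value. In bulk samples such as these, fewer cells with a transcript and less transcript per cell cannot be told apart.

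No paralog passed as higher with the 10 kb counts scaled within their table. In the 10 kb table edgeR tested 6 of the other 9 members in LNCaP, 8 in LNCaP95 and 7 in 22Rv1, and called 0, 0 and 0 of them higher, where 9.8%, 18.4% and 7.53% of all regions tested were higher. DESeq2 called none of them higher either. At an unadjusted p under 0.05, 1 member was different in LNCaP and 1 in LNCaP95 (HDAC3 in both, lower) and 0 in 22Rv1. The median log2 fold change of the members tested in LNCaP, LNCaP95 and 22Rv1 was 0.24, -0.15 and -0.03, beside 0.15, 0.26 and 0.21 over all regions. Members that were not tested stood at or below a mean of 2 CPM.

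Scaling within a table removes a rise shared by all 10 kb regions, and such a rise was large. With libraries scaled to their reads over all 4 tables, an alternative added after seeing the data that kept the same regions, the median log2 fold change of all 10 kb regions in LNCaP, LNCaP95 and 22Rv1 was 0.61, 1.08 and 0.73. On that scale 0 of 6, 2 of 8 and 0 of 7 paralogs were higher and none was lower, where 17.3%, 35.5% and 19.1% of regions were higher and 1.08%, 1.71% and 0.384% lower. The 2 were HDAC6 (3.19, edgeR adjusted p = 0.0281) and HDAC8 (1.61, adjusted p = 0.0297) in LNCaP95. HDAC6 had 1 control read there (control mean 1.34 CPM) and passed the filter of 2 CPM only through its knockdown libraries, so its call had to be a rise and is no support for one. HDAC8 held 6, 5 and 2 reads in controls and 4 in CPSF1 sh2 replicate 2, so its groups overlapped. Its call on that scale was not refitted with a library left out. The medians of the paralogs tested were 0.72, 0.69 and 0.49, and HDAC2 stood at 6.37, 6.79 and 4.82.

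**Figure D3:**
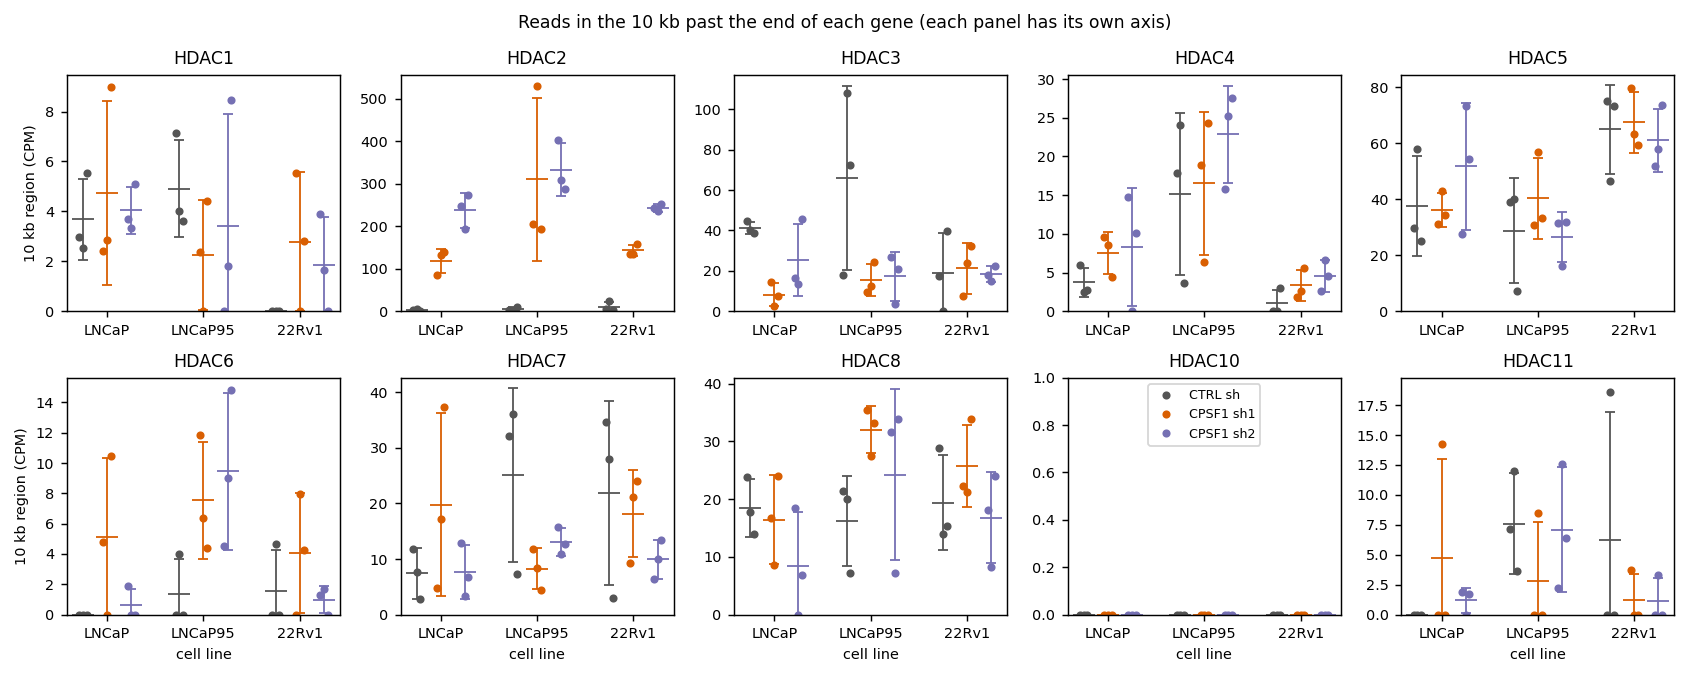
Reads in the 10 kb region of each histone deacetylase gene and library, in CPM on an axis of its own for each gene, with 1 point per library and the mean ± SD of 3 for CTRL sh, CPSF1 sh1 and CPSF1 sh2. Control and knockdown points are apart in all 3 lines for HDAC2, and HDAC10 has 0 reads in all 27 libraries.

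HDAC1 is the closest paralog of HDAC2 and its partner in the same complexes, and its 10 kb region stayed almost empty. Its LNCaP libraries held 1, 1 and 2 reads in controls, 1, 1 and 6 with CPSF1 sh1 and 2, 1 and 3 with CPSF1 sh2. In LNCaP95 controls held 2, 1 and 1 against 0 to 4 reads after knockdown, and in 22Rv1 all controls held 0 reads against 0 to 3. Groups overlapped in all lines. The pooled ratio was 1.33 in LNCaP (95% counting interval 0.419 to 5.57) and 0.573 in LNCaP95 (0.153 to 2.6). The 10 kb region of HDAC1 spans 32799536 to 32809535 of chromosome 1 and is shared with no other counted gene.

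HDAC3, the NCOR/SMRT enzyme, had the only call of the 10 kb table, and it was lower. In LNCaP95 the controls held 5, 27 and 20 reads (17.8, 108 and 72.2 CPM), CPSF1 sh1 libraries 4, 6 and 11 (9.46, 12.7 and 24.3 CPM) and CPSF1 sh2 libraries 12, 2 and 10 (27.1, 3.61 and 21.2 CPM). The lowest control lay among the knockdown libraries. The log2 fold change was -1.996 (SE 0.487, edgeR adjusted p = 0.000765), and DESeq2 made the same number of calls, 1. Lower regions made up 9.46% of those tested. Without CTRL sh replicate 2 of LNCaP95 the value was -1.46 (adjusted p = 0.0648) and the call was lost, and with libraries scaled to all 4 tables it was -1.13 (adjusted p = 0.0866). In LNCaP the 10 kb value of HDAC3 was -1.22 (SE 0.477, adjusted p = 0.0676), and that of 22Rv1 was -0.07 (adjusted p = 0.959, SE 0.56). With each shRNA alone, HDAC3 was lower with CPSF1 sh1 in LNCaP (-2.27, adjusted p = 0.00442) and with both in LNCaP95 (-2.06, adjusted p = 0.00706 and -1.94, adjusted p = 0.00842), where 2.85%, 5.58% and 7.86% of regions were lower. Its 10 kb window overlaps the introns of DIAPH1 on the same strand over 8364 bases, and the counted region holds 9744. Reads there can therefore come from either gene and cannot be told apart. Reads over all DIAPH1 introns had log2 fold changes of -0.01, -0.06 and -0.10 in the 3 lines, none of which passed. Those sums held 83 to 396 reads per library, so they do not show what changed within this window.

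The remaining class I gene, HDAC8, which acts outside the large corepressor complexes, held 0 to 24 reads per library. Its log2 fold changes were -0.47 (SE 0.614), 0.78 (SE 0.588) and 0.20 (SE 0.569), with edgeR adjusted p of 0.69, 0.346 and 0.88. The pooled ratio in LNCaP95 was 1.7 (95% counting interval 0.936 to 3.33).

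In class IIa, whose enzymes shuttle between nucleus and cytoplasm and bind MEF2 factors, the 10 kb region of HDAC5 had reads in every library. In LNCaP its controls held 10, 23 and 9 reads, CPSF1 sh1 libraries 13, 15 and 23, and CPSF1 sh2 libraries 15, 22 and 32. In 22Rv1 the reads were 13, 10 and 24 in controls, 43, 24 and 42 with CPSF1 sh1, and 40, 35 and 49 with CPSF1 sh2. Scaled to the table these gave log2 fold changes of 0.18 (SE 0.397) in LNCaP, 0.21 (SE 0.507) in LNCaP95 and -0.03 (SE 0.332) in 22Rv1, with edgeR adjusted p of 0.831, 0.795 and 0.978. The HDAC5 window overlaps introns of LSM12 on the same strand over 1051 bases, and the part of its reads that ended there is not known. HDAC4 held 0 to 14 reads per library, with log2 fold changes of 1.09 (SE 0.971), 0.39 (SE 0.638) and 1.42 (SE 1.44). In 22Rv1 the HDAC4 controls together held 1 read (control mean 1.02 CPM). It passed the filter of 2 CPM there only through its knockdown libraries, so its direction was set by the filter. HDAC7 held 1 to 25, with 0.95 (SE 0.741), -1.20 (SE 0.634) and -0.50 (SE 0.637). None of these passed, and with libraries scaled to all 4 tables the 22Rv1 value of HDAC5 turned positive (0.49, adjusted p = 0.35).

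The class IIb gene HDAC6, a cytoplasmic tubulin deacetylase, went from 0, 1 and 0 reads in LNCaP95 controls to 5, 3 and 2 with CPSF1 sh1 and 2, 5 and 7 with CPSF1 sh2. Its knockdown libraries all exceeded the controls in reads. The pooled counts were 1 and 24, with a ratio of 6.87 (95% counting interval 1.12 to 283), and the log2 fold change of 2.50 (SE 1.27) did not pass (edgeR adjusted p = 0.136). The HDAC6 region shares 4844 bases, 57.4% of its length, with the 10 kb region of ERAS, which held 0 to 1 reads per library. Whether reads in shared bases were counted for either gene is not known. Low counts of HDAC6 and ERAS there thus do not show that few transcripts ended in the shared part. HDAC11, the class IV enzyme, held 0 to 7 reads, with log2 fold changes of -0.52 (SE 0.989, adjusted p = 0.737) in LNCaP95 and -2.16 (SE 1.27, adjusted p = 0.293) in 22Rv1.

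HDAC10 held 0 reads in its 10 kb region in all 27 libraries. At a floor of 3 reads this would allow up to 0.254 CPM over all libraries, but only if reads there could be counted. Of that region, 96.9% is shared with the 10 kb region of MAPK12, which also had 0 reads. The HDAC10 window also overlaps introns of TUBGCP6 on the same strand over 8674 bases. The introns of HDAC10 are shared with MAPK12 over their whole 1391 bases and had 0 reads too. Such values cannot be read as the absence of transcripts. In 18 of the 27 pairs of line and paralog, the paralog's upper counting limit lay below the lower limit of HDAC2. The other 9 pairs held too few reads or too wide an interval to say so. The family was chosen for the rise of HDAC2, and the intervals leave out the spread between libraries. These comparisons are therefore a description and not a test.

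**Figure D4:**
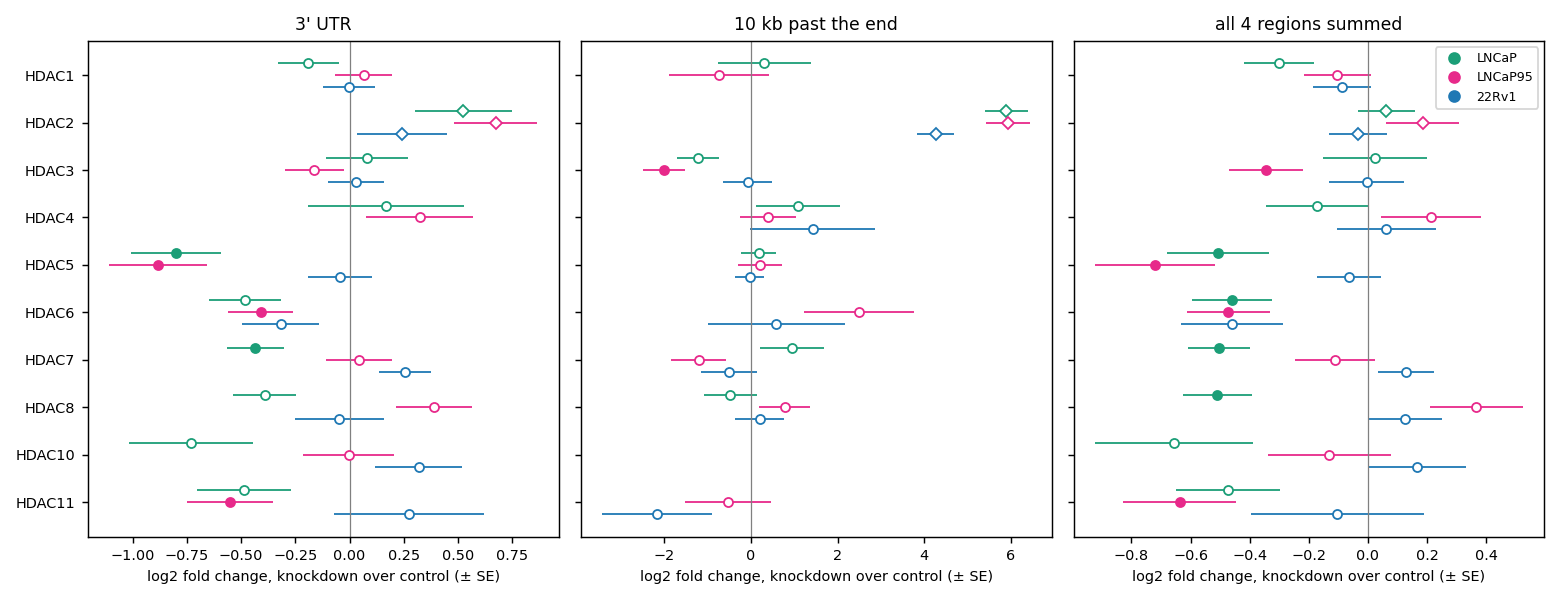
Log2 fold change of knockdown over control with its standard error for the histone deacetylase genes in the 3′ UTR table, the 10 kb table and the sum of the 4 tables, with filled circles where the edgeR adjusted p was under 0.05, open circles where it was not, and diamonds for HDAC2, which was not tested. HDAC2 stands at 5.89, 5.94 and 4.26 in the 10 kb table, and the other members tested lie there between -2.16 and 2.50.

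Judged by the share of a gene's own reads, 1 of the other 9 members had all knockdown libraries above all controls in LNCaP (HDAC5), 2 in LNCaP95 (HDAC5 and HDAC6) and 1 in 22Rv1 (HDAC4), where 17.8%, 33.5% and 20.7% of all genes did. The HDAC5 share rose from 10.4% ± 1.91 (SD, n = 3) to 25.6% ± 11.8 (n = 6) in LNCaP and from 5.63% ± 3.14 to 20.5% ± 6.77 in LNCaP95. In 22Rv1 it was 10.8% and 14.9% and the groups overlapped. Its 10 kb reads had not passed in any line, and its 3′ UTR reads were lower in both of those lines. The share of HDAC6 in LNCaP95 went from 0.0718% to 1.01% and that of HDAC4 in 22Rv1 from 0.208% to 1.51%. In each of these 2 cases the controls together held 1 read in the 10 kb region, under the floor of 3 reads.

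Tested as a ratio of 10 kb to 3′ UTR reads within libraries, edgeR called 0 of 6 members in LNCaP, 2 of 8 in LNCaP95, and none of the 6 tested in 22Rv1, where 10.5%, 29% and 7.59% of genes passed. The 2 calls went opposite ways. HDAC6 was higher by a log2 ratio of 3.14 (SE 1.15, adjusted p = 0.0367) and HDAC3 lower, at -1.79 (SE 0.514, adjusted p = 0.00824). The HDAC6 region had passed the filter only through its knockdown libraries, with 1 control read, so its direction was set by the filter. It missed the threshold in 5 of the 9 fits without a library of LNCaP95 (adjusted p 0.0525 to 0.154, the highest without CTRL sh replicate 1), and the HDAC3 ratio did so without CTRL sh replicate 2 (-1.22, adjusted p = 0.129). At an unadjusted p under 0.05 the counts were 1, 3 and 0, and DESeq2 was not run on the ratio. HDAC5 had ratios of 0.99 (SE 0.513, adjusted p = 0.231) in LNCaP and 1.14 (SE 0.579, adjusted p = 0.138) in LNCaP95.

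In the 3′ UTR table the paralogs that passed were all lower. EdgeR called 2 of 9 members in LNCaP and 3 of 9 in LNCaP95, with 0 of 8 for 22Rv1, where lower genes were 10.2%, 15.6% and 0.783% of those tested and genes of either direction 18.3%, 30.4% and 1.47%. Of the class I and IIb paralogs only HDAC6 was among them, and the rest were HDAC5, HDAC7 and HDAC11. For 22Rv1 the count was 0 at an unadjusted p under 0.05 and by DESeq2 as well. The median log2 fold change of the other members in LNCaP, LNCaP95 and 22Rv1 was -0.43, -0.004 and 0.01, beside medians of 0.01, 0.002 and -0.001 over all genes.

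HDAC5 passed in both LNCaP and LNCaP95. In LNCaP its controls stood at 16.6, 26 and 18.2 CPM, CPSF1 sh1 libraries at 14.3, 12.7 and 11.1, and CPSF1 sh2 libraries at 11.8, 11.2 and 9.24. In LNCaP95 the values were 19.9, 25.3 and 17.4 CPM, against 10.2, 11.7 and 14.2 and 12.1, 7.02 and 12.9. All knockdown libraries were below all controls in both. The log2 fold change was -0.80 (SE 0.207, edgeR adjusted p = 0.0111) in LNCaP and -0.88 (SE 0.225, adjusted p = 0.00614) in LNCaP95, and in 22Rv1 it was -0.05 on controls of 31.6, 33.5 and 30.5 CPM. Without CTRL sh replicate 2 of LNCaP the LNCaP value was -0.57 (adjusted p = 0.127), while the LNCaP95 call was kept in all 9 fits that left out a library.

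HDAC7, the other class IIa gene with a call, was lower in LNCaP, where controls stood at 85.5, 71 and 77.8 CPM and knockdown libraries between 51.5 and 66.0, below all of them. The log2 fold change was -0.43 (SE 0.131, edgeR adjusted p = 0.0268). It missed the threshold in 4 of the 9 fits without a library (adjusted p 0.0586 to 0.142, without CTRL sh replicate 1 or 3 or CPSF1 sh1 replicate 1 or 2). In 22Rv1 HDAC7 went from 78.9, 80.2 and 86.4 CPM in controls to 91.8 to 113 after knockdown, all above the controls, at 0.26 (SE 0.121, adjusted p = 0.353). HDAC4 did not pass in either LNCaP line (0.17 and 0.32) and was too low to test in 22Rv1.

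HDAC6 in LNCaP95 had control values of 136, 100 and 117 CPM, against 86.2, 78.1 and 116 with CPSF1 sh1 and 87.7, 86.5 and 76.9 with CPSF1 sh2. One knockdown library lay within the controls. The log2 fold change was -0.41 (SE 0.149, edgeR adjusted p = 0.0433), and it was lost in 7 of the 9 fits that left out a library (adjusted p 0.0582 to 0.25, the highest without CTRL sh replicate 1). In LNCaP it was -0.48 (SE 0.166, adjusted p = 0.0502), just outside the threshold, and -0.74 (SE 0.164, adjusted p = 0.00536) with CPSF1 sh1 alone, where 8.96% of genes were lower. HDAC11 in LNCaP95 had 52, 37.7 and 38.5 CPM in controls and 18.8 to 40.6 after knockdown, a log2 fold change of -0.55 (SE 0.198, adjusted p = 0.0409). It dropped out in 6 of the 9 such fits (adjusted p 0.0594 to 0.252, the highest without CTRL sh replicate 1). The class I members did not pass in any line: HDAC1 had values of -0.19, 0.07 and -0.003, HDAC3 of 0.08, -0.16 and 0.03, and HDAC8 of -0.39, 0.39 and -0.05. HDAC10 had -0.73 (SE 0.285, adjusted p = 0.0825) in LNCaP, with -0.004 in LNCaP95 and 0.32 in 22Rv1.

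Introns and CDS gave few calls. Of 8 members tested in introns in each line, HDAC7 was lower in LNCaP (-0.78, SE 0.19, edgeR adjusted p = 0.00458), from 49.0 to 28.1 CPM with all knockdown libraries below the controls, and 5.95% of introns were lower. Without CTRL sh replicate 2 of LNCaP it was -0.54 (adjusted p = 0.131). HDAC8 was higher in LNCaP95 (0.48, SE 0.177, adjusted p = 0.0479), from 279 to 388 CPM, where 12.9% of introns were higher, and it missed the threshold in 6 of the 9 fits without a library (adjusted p 0.0565 to 0.278). In 22Rv1 introns 0 members passed, with 0 at an unadjusted p under 0.05 and 0 by DESeq2, where 4.35% of introns did. In the CDS table the 2 members tested, HDAC1 and HDAC6, gave 0 calls in all lines by edgeR, at an unadjusted p under 0.05 and by DESeq2, where 6.86%, 12.7% and 0.993% of genes passed.

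Over the 4 tables together, 4 of the other 9 members were lower in LNCaP and 4 in LNCaP95, where 15% and 18.3% of genes were lower, and none was higher. In LNCaP these were HDAC5 (-0.51, SE 0.172, edgeR adjusted p = 0.0356), HDAC6 (-0.46, SE 0.136, adjusted p = 0.0181), HDAC7 (-0.50, SE 0.104, adjusted p = 0.00165) and HDAC8 (-0.51, SE 0.116, adjusted p = 0.00326). HDAC7 and HDAC8 kept the call in all 9 fits that left out a library of LNCaP. HDAC5 was lost in 5 of them and HDAC6 in 2, and the count fell to 2 without CTRL sh replicate 2. In LNCaP95 they were HDAC3 (-0.34, SE 0.125, adjusted p = 0.0385), HDAC5 (-0.72, SE 0.204, adjusted p = 0.00963), HDAC6 (-0.47, SE 0.14, adjusted p = 0.0129) and HDAC11 (-0.64, SE 0.192, adjusted p = 0.014). Without CTRL sh replicate 1 of LNCaP95 all 4 missed the threshold (adjusted p 0.0538 to 0.107), and HDAC3 was lost in 6 of the 9 fits. In 22Rv1 0 of 9 passed by edgeR and by DESeq2 and 1 (HDAC6, -0.46) had an unadjusted p under 0.05, where 7.8% of genes passed.

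Whether the response of a member differed between lines was tested as a line-by-knockdown term over the 27 libraries. In 3′ UTRs 1 of the other 9 members passed in each pair of lines, where 9.72%, 5.13% and 10.6% of genes did for LNCaP95 against LNCaP, 22Rv1 against LNCaP, and 22Rv1 against LNCaP95. These were HDAC8 (LNCaP95 minus LNCaP 0.76, SE 0.252, edgeR adjusted p = 0.0496), HDAC7 (22Rv1 minus LNCaP 0.69, SE 0.181, adjusted p = 0.0185) and HDAC5 (22Rv1 minus LNCaP95 0.86, SE 0.264, adjusted p = 0.0315). The HDAC7 call was kept in 25 of the 27 fits that left out a library, and was lost without LNCaP CTRL sh replicate 1 or 22Rv1 CTRL sh replicate 2 (adjusted p 0.0695 and 0.0515). The HDAC5 call was lost in 5, without LNCaP95 CTRL sh replicate 1 or 2, LNCaP95 CPSF1 sh2 replicate 2, or 22Rv1 CTRL sh replicate 2 or 3 (adjusted p 0.0508 to 0.108), and that of HDAC8 in 18 (adjusted p 0.0512 to 0.112). For the 10 kb regions 0 passed in any pair, where 2.47%, 1.02% and 4.36% did, with 1 at an unadjusted p under 0.05 in each pair, and DESeq2 was not run for these terms.

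The levels of the members in cells with CTRL sh were compared between the control libraries of the lines, scaled over those 9 libraries. HDAC2 had 51.5 ± 12.8, 39.5 ± 10.8 and 59.2 ± 21.7 CPM (SD, n = 3) in the 3′ UTR of LNCaP, LNCaP95 and 22Rv1. The order was 22Rv1, LNCaP and LNCaP95, and no neighbour differed: LNCaP95 minus LNCaP was -0.39 (SE 0.263, edgeR adjusted p = 0.258), 22Rv1 minus LNCaP 0.23 (SE 0.263, adjusted p = 0.502) and 22Rv1 minus LNCaP95 0.62 (SE 0.264, adjusted p = 0.0573). The last passed without LNCaP95 CTRL sh replicate 2 (adjusted p = 0.0324) or 22Rv1 CTRL sh replicate 1 (adjusted p = 0.00149).

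**Figure D5:**
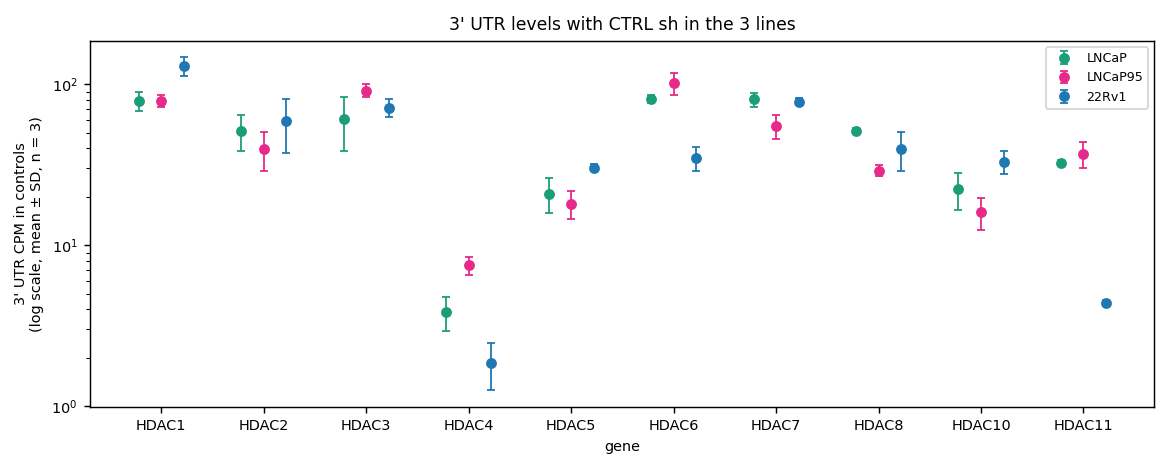
3′ UTR level of each histone deacetylase gene in the control libraries of LNCaP, LNCaP95 and 22Rv1, on a log axis of CPM with the mean ± SD of 3 libraries. HDAC11 lies at a mean of 4.39 CPM in 22Rv1 against 32.6 and 37.0 in LNCaP and LNCaP95.

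Some paralogs passed between lines, as many genes did. Of the 10 members 3 passed between LNCaP95 and LNCaP, 3 between 22Rv1 and LNCaP and 7 between 22Rv1 and LNCaP95, where 39.4%, 47.3% and 54.5% of genes did. HDAC11 was lower in 22Rv1, with 4.39 CPM against 32.6 in LNCaP (log2 difference -2.88, SE 0.246, edgeR adjusted p = 5.85e-08) and 37 in LNCaP95 (-3.06, adjusted p = 1.64e-08). HDAC6 was lower there too, with 35 CPM against 81.2 and 102 (-1.22, adjusted p = 3.19e-05, and -1.55, adjusted p = 1.6e-06). HDAC1 was higher in 22Rv1, with 130 CPM against 78.6 and 78.7 (0.73 in both, adjusted p = 0.00155 and 0.00119). These 6 calls were kept in all 9 fits that left out a control library.

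Against LNCaP95 alone, 22Rv1 also had less HDAC4 (1.86 against 7.5 CPM, -1.89, edgeR adjusted p = 0.00117) and more HDAC5 (30.3 against 18.1, 0.75, adjusted p = 0.00983), HDAC7 (77.9 against 54.7, 0.51, adjusted p = 0.0155) and HDAC10 (33 against 16, 1.02, adjusted p = 0.00196). LNCaP95 differed from its parent LNCaP in HDAC8 (29 against 51.3 CPM, -0.82, adjusted p = 0.00251), HDAC7 (54.7 against 80.7, -0.56, adjusted p = 0.0131) and HDAC3 (91.3 against 60.7, 0.58, adjusted p = 0.0405). Leaving out a control library lost the HDAC3 call in 5 of 9 fits (adjusted p 0.0657 to 0.194), the HDAC7 call against LNCaP in 2 (LNCaP CTRL sh replicate 1 or LNCaP95 CTRL sh replicate 2) and that against 22Rv1 in 2 (LNCaP95 CTRL sh replicate 2 or 22Rv1 CTRL sh replicate 3). For the 10 kb regions 0 of 8 members tested passed between controls of any pair by edgeR or DESeq2, with 1, 1 and 3 at an unadjusted p under 0.05, where 5.74%, 10.7% and 15.2% of regions did.

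The partners of the deacetylases were counted from lists of complex subunits and of related enzymes. In the 10 kb regions 1, 4 and 3 of 10 tested NuRD partners were higher in LNCaP, LNCaP95 and 22Rv1, and 3, 2 and 0 were lower. RBBP7, a histone-binding subunit of NuRD and SIN3 complexes, had 1 read in each LNCaP control and 16 to 37 reads per knockdown library, 0 to 14 and 76 to 143 in LNCaP95, and 3 to 10 and 50 to 90 in 22Rv1. Its log2 fold change was 4.18 (SE 0.638, edgeR adjusted p = 3.68e-08), 3.06 (SE 0.395, adjusted p = 5.22e-10) and 2.34 (SE 0.387, adjusted p = 1.3e-06), and no 3′ UTR value of RBBP7 passed. Its sister RBBP4 was higher in LNCaP95 (1.96, adjusted p = 0.000304) and 22Rv1 (2.61, adjusted p = 8.83e-05). The NuRD remodeler CHD4 was lower in LNCaP (-0.70, adjusted p = 0.041) and LNCaP95 (-0.71, adjusted p = 0.0338), as was MTA2 (-1.36, adjusted p = 0.000602, and -1.86, adjusted p = 1.64e-06). MBD2, the methyl-DNA reader of the complex, was higher in the 3′ UTR table in LNCaP (0.49, adjusted p = 0.0401) and LNCaP95 (0.52, adjusted p = 0.0135).

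Of the SIN3 partners 3 of 10, 4 of 11 and 2 of 10 tested were higher in the 10 kb regions and 0, 1 and 0 lower. FAM60A was higher in all lines (2.14, edgeR adjusted p = 7.81e-05, 2.44, adjusted p = 1.98e-06, and 1.06, adjusted p = 0.00538). SUDS3 had 0 control reads in LNCaP and LNCaP95 and 0 to 1 in 22Rv1, against 1 to 9, 4 to 7 and 5 to 15 after knockdown, so that it passed the filter in LNCaP and LNCaP95 only through the knockdown libraries, while its 3′ UTR was lower in all 3 lines (-0.40, -0.42 and -0.64, adjusted p = 0.038, 0.03 and 0.0164). The scaffold SIN3B was higher in LNCaP (2.35, adjusted p = 0.0188) and LNCaP95 (2.63, adjusted p = 0.000152). In LNCaP its controls held 0 to 4 reads and its knockdown libraries 0 to 29, of 67 in all, so the groups overlapped. In LNCaP95 the reads were 0 to 5 and 15 to 60.

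Of the CoREST partners 1 of 8, 4 of 10 and 2 of 9 were higher and 0, 1 and 0 lower, among them ZMYM2 in all lines (1.79, 2.41 and 3.04, edgeR adjusted p = 0.04, 0.00478 and 0.0101). NCOR/SMRT partners had 0 of 5, 0 of 6 and 0 of 5 higher, with 1 lower in LNCaP95. The class IIa partners had 0 of 11, 3 of 12 and 2 of 11 higher and 0, 1 and 0 lower, the higher ones including the phosphoserine-binding adaptor genes YWHAQ and YWHAZ in LNCaP95 and 22Rv1. The sirtuins, deacetylases of a separate family, had 0 of 6 higher in each line and 0, 2 and 1 lower, with SIRT5 lower in LNCaP95 (-0.91, adjusted p = 0.005) and 22Rv1 (-1.23, adjusted p = 8.02e-08). Acetyltransferases, which add the marks that deacetylases remove, had 1 of 11, 5 of 11 and 3 of 12 higher and 0 lower, among them KAT2B in LNCaP (3.57, edgeR adjusted p = 0.00086) and LNCaP95 (3.52, adjusted p = 1.64e-05). These counts stand beside 9.8%, 18.4% and 7.53% of all regions higher and 4.82%, 9.46% and 2.51% lower.

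Fewer partners were lower under another scaling. With libraries scaled to all 4 tables, 3, 7 and 5 NuRD partners were higher and 1, 1 and 0 lower, 3, 7 and 4 SIN3 partners higher and 0, 1 and 0 lower, and 3, 5 and 3 CoREST partners higher, where 17.3%, 35.5% and 19.1% of all regions were higher and 1.08%, 1.71% and 0.384% lower. NCOR/SMRT partners then had 0, 3 and 0 higher, class IIa partners 0, 4 and 5 and acetyltransferases 1, 9 and 5, with 0 lower in each. The sirtuins had 0 higher and 0, 0 and 1 lower. CHD4 changed sign in LNCaP95 (0.16, edgeR adjusted p = 0.723) and SIRT5 no longer passed there (-0.08, adjusted p = 0.854), while MTA2 stayed lower in LNCaP (-0.92, adjusted p = 0.0441) and LNCaP95 (-1.01, adjusted p = 0.021) and SIRT5 in 22Rv1 (-0.69, adjusted p = 0.00365).

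Among 3′ UTRs 8.17%, 14.8% and 0.687% of all genes were higher and 10.2%, 15.6% and 0.783% lower. The NuRD list had 1, 4 and 0 of 12 higher and 1, 1 and 0 lower, the SIN3 list 2, 0 and 0 of 14 higher and 1, 3 and 1 lower, and the CoREST list 0 higher and 1, 2 and 0 lower of 9, 9 and 10. NCOR/SMRT partners had 0, 1 and 0 of 5 higher and 0, 1 and 0 lower. The class IIa list had 1, 2 and 0 higher and 1, 1 and 0 lower, the sirtuins 1, 0 and 0 of 6 higher and 0, 1 and 0 lower, and the acetyltransferases 1, 1 and 0 of 12 higher and 0, 1 and 0 lower.

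The 10 kb regions whose levels followed those of HDAC2 most closely over the 27 libraries, among 12304 genes, were those of TOP1 (Pearson r = 0.971 of log2 CPM), which encodes DNA topoisomerase I, SPCS1 (r = 0.952), a signal peptidase subunit, and CSTF3 (r = 0.950), a subunit of the cleavage stimulation factor. The libraries share their knockdown and their line, so these values only describe the likeness. The log2 fold changes were 4.68, 4.45 and 3.07 for TOP1, 2.71, 2.41 and 1.46 for SPCS1, and 4.02, 5.10 and 4.85 for CSTF3 in LNCaP, LNCaP95 and 22Rv1.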

How the data were processed

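PAC-seq reads of 27 libraries from 3 cell lines (3 per shRNA and line) were used, with groups and replicate numbers from the sample titles and 0 columns left over. The 4 tables deposited by the authors hold raw counts, not normalized, of reads per gene: 3′ UTRs extended by 300 bases, introns, CDS, and the 10 kb beyond the gene end without exons of the same strand. They mapped reads to hg19 (GRCh37) with HISAT2 2.1.0 and assigned the 3′-most base of each read to a region on the gene's strand with featureCounts (Subread 2.0.3 per the labels). DPAC removes sites with more than 12 As in the next 20 bases, and whether this acted on these tables is not stated, so priming at A-rich DNA can enter the counts.

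Counts were tested by the glmQLFTest of edgeR 4.0.16 in R 4.3.3, 3 control against 6 knockdown libraries per line, with TMM factors within a table, genes above a mean of 2 CPM, and Benjamini-Hochberg adjustment over all genes tested (threshold 0.05). A change in the 10 kb table is therefore relative to other 10 kb regions. Standard errors are approximate, taken from the log2 fold change and its F statistic. The 10 kb to 3′ UTR ratio was tested as a region-by-knockdown term in a model with library and region. DESeq2 1.42.0, other scalings and filters, a replicate block and leaving out each library were alternatives. The models were tested on simulated data. Pooled ratios carry exact 95% counting intervals, and the floor of a zero is 3 reads. Sequences and positions were read from the GRCh37 genome at the tables' own regions.

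The members and the lists (NuRD, SIN3, CoREST, NCOR/SMRT and class IIa partners, sirtuins, lysine acetyltransferases) were chosen with earlier results of these data known. Named partners were at most 3 per list and direction, those called in the 3′ UTR or 10 kb table in the most lines, with ties by size, and the text gives some of these. Also named were CPSF1, genes of the same strand near a member's end, and the 3 genes most like HDAC2 in the 10 kb table by Pearson's r. Deviations of same-numbered replicates had correlations of -0.256 to 0.392. No pairing was assumed, and a replicate block was run as an alternative.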

Additional observations from a re-analysis of the deposited data

Results flagged for a closer look

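The knockdown response of 3 members in the 3′ UTR table differed between lines by edgeR's line-by-knockdown term. HDAC8 had log2 fold changes of -0.39 in LNCaP and 0.39 in LNCaP95, neither of which passed, and a difference of 0.76 (SE 0.252, adjusted p = 0.0496) that was lost in 18 of the 27 fits without a library. HDAC7 fell in LNCaP and had 0.26 in 22Rv1, which did not pass, a difference of 0.69 (SE 0.181, adjusted p = 0.0185). HDAC5 fell in LNCaP95 and had -0.05 in 22Rv1, which did not pass, a difference of 0.86 (SE 0.264, adjusted p = 0.0315).

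In 3 further cases every knockdown library lay above the control mean in 1 line and below it in another. HDAC7 had a 3′ UTR log2 fold change of 0.26 in 22Rv1 with all knockdown libraries above the control mean, and -0.43 in LNCaP with all below, the difference whose test is given above. HDAC7 introns stood at 0.15 in 22Rv1 and -0.78 in LNCaP, and HDAC8 introns at 0.48 in LNCaP95 and -0.32 in LNCaP, and for introns the difference between lines was not tested.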

How the results depend on the processing

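Counts of called members moved as follows with the processing, and the cause of each move was not tested. In LNCaP the count among the other 9 members went in the 3′ UTR table from 2 to 4 with no filter on low counts, in the 10 kb table from 0 to 1 with DESeq2 size factors or a replicate block (HDAC3 with the block, -1.38, adjusted p = 0.0419), in introns from 1 to 3 with libraries scaled to all 4 tables, and for the ratio from 0 to 1 with that scaling, with 2 CPM required in every library, or with the replicate block. In LNCaP95 scaling to all 4 tables took the 10 kb count from 1 to 0 where the 2 CPM filter was applied on that scale, which dropped HDAC3, and to 2 with the same regions kept. That scaling took the intron count from 1 to 0 and the ratio from 2 to 0, and 2 CPM in every library took the ratio to 1. HDAC6 in the LNCaP95 3′ UTR had an adjusted p of 0.0531 under the block. In controls the block took 22Rv1 against LNCaP from 3 to 5. The block changed no other count by over 1.5 times except the HDAC5 difference in response of 22Rv1 and LNCaP95, which went from 1 to 0, as it did with no filter. The HDAC8 difference went from 1 to 0 with DESeq2 size factors or no filter. The titles give same-numbered libraries a common number, and what else they shared is not stated.

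With 1 library left out, the LNCaP counts ranged from 1 to 5 in the 3′ UTR, 0 to 1 in the 10 kb table, 0 to 2 in introns, 2 to 5 over all 4 tables and 0 to 1 for the ratio. For LNCaP95 the ranges were 1 to 3, 0 to 1, 0 to 1, 0 to 4 and 1 to 2. In controls the 3′ UTR counts ranged from 1 to 4 (LNCaP95 and LNCaP), 3 to 4 (22Rv1 and LNCaP) and 6 to 8 (22Rv1 and LNCaP95), and the 10 kb counts from 0 to 1 for both pairs with 22Rv1. The difference in response ranged from 0 to 2, 0 to 2 and 0 to 1. In 22Rv1 the knockdown counts were 0 under all alternatives run.

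The gain in the HDAC2 10 kb share was 5.28, 10.1 and 5.35 percentage points of all its reads, and 23.5, 32.7 and 21.7 with only 3′ UTR and 10 kb reads as the denominator. Without 1 library its 10 kb log2 fold change ranged in LNCaP from 5.36 to 6.71, in LNCaP95 from 5.43 to 7.21 and in 22Rv1 from 3.63 to 5.52. Requiring 2 CPM in every library left no HDAC2 value in LNCaP and LNCaP95. No called value of a member reversed, while the CHD4 10 kb value in LNCaP95 went from -0.71 to 0.16 with libraries scaled to all 4 tables.

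Scaling to all 4 tables, with its own filter, moved the median of all genes from 0.15 to 0.61, 0.26 to 1.29 and 0.21 to 0.60 in the 10 kb table of LNCaP, LNCaP95 and 22Rv1, and the part of calls that were higher from 67.0%, 66.1% and 75.0% to 91.5%, 94.2% and 97.5%. In introns that part went from 58.6%, 54.0% and 63.2% to 18.9%, 43.0% and 95.9%, and in the 3′ UTR from 44.6%, 48.6% and 46.7% to 48.3%, 33.5% and 18.6%. Depth limited the 10 kb table, where HDAC1, HDAC6 and HDAC11 held at most 7 reads in any library, and the CDS table, where 7 of the other 9 members held at most 4.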
